A study of Homo sapiens with 9 samples.

Results

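RNA of H295R cells labelled as overexpressing SGPL1 was compared with RNA of wild-type (WT) H295R cells, as 3 libraries against 3, chosen by sample title and genotype label. These are 6 of the 9 libraries of the series. The other 3, from SGPL1 knockout (KO) cells, entered the model for its estimate of spread, and their levels are given beside a few genes. H295R is a human line from an adrenocortical carcinoma that makes adrenal steroids. All cells were untreated, and poly-A RNA was sequenced after random priming. The overexpression group is called OE-labelled throughout, because SGPL1 itself was not higher in it. The sources used here give neither the construct nor the promoter, do not say whether the OE-labelled cells are 1 clone or a pool, and do not say whether WT cells carried an empty vector. The series' text calls the replicates biological without saying that each came from its own culture. A p-value here thus reflects differences among these libraries, which may be partly technical.

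SGPL1 encodes sphingosine-1-phosphate (S1P) lyase, the enzyme of the endoplasmic reticulum that irreversibly splits S1P into a fatty aldehyde and phosphoethanolamine. It is the only way out of the sphingolipid pathway, and S1P itself signals through cell-surface receptors. Inherited loss of SGPL1 causes adrenal insufficiency, and sphingosine is among the lipids that bind NR5A1, the nuclear receptor that drives steroidogenic genes. Steroid synthesis begins with cholesterol uptake by SCARB1 and its transfer into mitochondria by STAR, continues with side-chain cleavage by CYP11A1, and then runs through HSD3B2, CYP17A1 and CYP21A2.

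SGPL1 was measured at 102, 83.4 and 98.1 CPM (read counts relative to the library's scaled total) in WT libraries 1 to 3 and at 98.1, 81.3 and 101.2 CPM in OE-labelled libraries 1 to 3. The groups overlapped, while the KO libraries lay lower, at 47.2, 43.9 and 53.8 CPM. The OE-labelled minus WT difference was -0.01 ± 0.14 on the log2 scale (SE, n = 3 each; 95% interval -0.30 to 0.27; adjusted p = 0.966), and 0.18 ± 0.12 with the length correction described further on (adjusted p = 0.276). Totals were 8006873 to 8549071 counts in WT and 8020836 to 10895080 in OE-labelled libraries. All 13 markers of adrenocortical steroid cells passed the filter on low counts. Of the markers of other cell types, 3 of 10 fibroblast, 3 of 10 epithelial, 1 of 8 leukocyte, 0 of 8 endothelial and 3 of 10 chromaffin genes did, and 2 of these were called, COL3A1 and CHGB, both lower. In such bulk RNA, fewer cells of a type and less RNA per cell cannot be told apart.

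Of 14150 genes tested, 1365 were higher in OE-labelled libraries (9.65%) and 1559 lower (11%) at an edgeR adjusted p under 0.05, 20.7% in all, and 664 of them changed at least 2-fold. Scaled by library totals alone, the median of all genes moved from -0.01 to -0.13 and the calls to 765 higher and 2190 lower. The counts rested partly on single libraries: 557 higher and 824 lower without WT 1, 485 and 759 without WT 3, and 817 and 1032 without OE-labelled 2. Much of the difference followed gene length. The median log2 difference was 0.31 for genes under 1000 nucleotides (nt) of the annotated length, 0.25 for 1000 to 2000 nt, 0.15 for 2000 to 4000 nt, -0.04 for 4000 to 8000 nt and -0.28 above 8000 nt. Short genes were therefore higher and long genes lower in the OE-labelled libraries.

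The trend differed between libraries of one group as well. Each library's log2 levels were taken relative to the mean of the WT, KO and OE-labelled group means, so a slope's sign is relative to that mean. Their slope per library on log2 length was 0.056, -0.053 and 0.103 in WT and -0.075, -0.204 and -0.083 in the OE-labelled libraries. The groups did not overlap, and WT 2 lay next to OE-labelled 1 and 3. The mean slopes were 0.035 ± 0.080 (SD, n = 3) and -0.121 ± 0.073 (SD, n = 3), a difference of -0.156 (two-sided exact permutation p = 0.1, the smallest that 3 against 3 allows). Genes longer than 8000 nt took 21.5%, 18.9% and 23.1% of all counts in WT and 18.1%, 15.4% and 17.7% in OE-labelled libraries. The labels give no measure of RNA integrity per library, and what part RNA quality had in the slope was not tested.

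**Figure D1:**
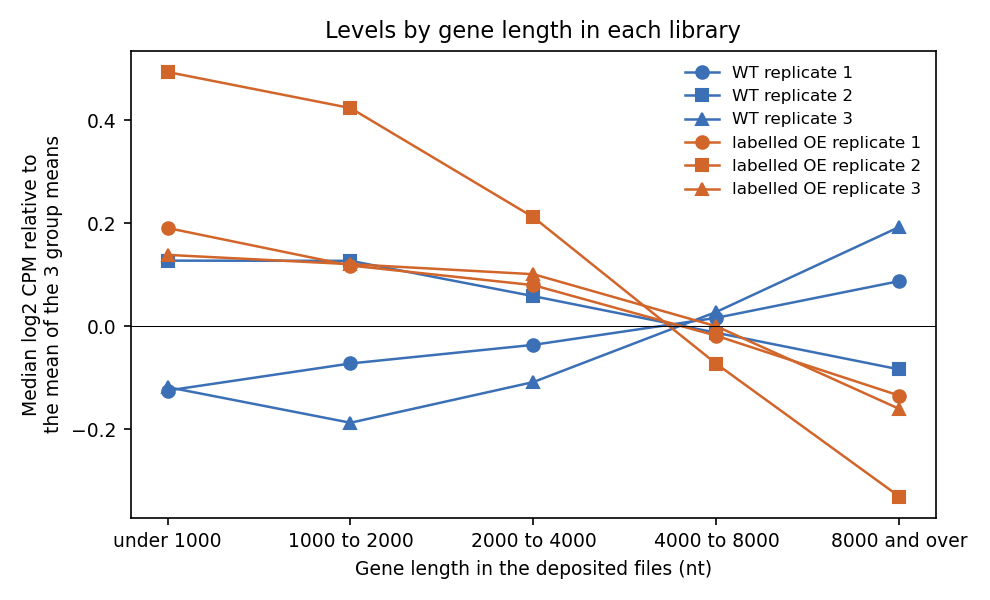
Median log2 CPM of genes in each length class (x axis, nucleotides) relative to the mean of the 3 group means (y axis, log2), 1 line per library of WT (blue) and OE-labelled cells (orange). The OE-labelled lines fall toward long genes with slopes of -0.075, -0.204 and -0.083, and WT 2, at -0.053, is the WT line nearest to them.

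Each difference was therefore read in 5 fits. The first used the counts as deposited. The second removed each library's own trend on length, after which the medians of the 5 length classes lay between 0.04 and 0.09; it called 1848 genes higher (13.1%) and 1179 lower (8.33%). The third added the library slope as a covariate and called 370 genes higher (2.61%) and 388 lower (2.74%). The other 2 fits, without and with the correction, set WT 2 against OE-labelled 1 and 3, whose slopes are close to its own, with the lone WT library assumed to vary like the rest. On the counts this called 95 genes higher (0.628%) and 143 lower (0.945%), and with the correction 245 and 162. The first and second fits shared 1179 higher calls (8.33%) and 1025 lower calls (7.24%), and called 0 genes in opposite directions. In all 5 fits, 73 genes were called higher (0.516%) and 115 lower (0.813%). The last 2 fits use fewer libraries. In the third, the standard error rose for some genes (HSD3B2, 0.15 to 0.19) and fell for others (FDXR, 0.16 to 0.13). The FDXR estimate itself went from 0.70 to 0.13, so a lost call can reflect a smaller estimate. A call lost in the last 3 fits does not show that a gene was the same in both groups.

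Genes of steroid synthesis were higher in the OE-labelled libraries. Of the 26 tested of a list of 31, 12 were called higher and 0 lower, with a median difference of 0.37 beside -0.01 over all genes, and 15 and 0 with the length correction (median 0.34). In all 5 fits 4 of the 26 were called, all higher: HSD3B2, CYP21A2, CYP19A1 and SCARB1. The number called fell to 7 without WT 1, without WT 3 or without OE-labelled 2, and to 8 higher and 1 lower when scaled by library totals alone. It was 5 with the slope as a covariate and 4 with WT 2 against OE-labelled 1 and 3, and the list's median stayed positive in both, at 0.21 and 0.28.

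HSD3B2, the enzyme that turns pregnenolone into progesterone and is typical of the adrenal cortex and gonads, had the largest rise of the list's called genes. It was at 13.1, 14.7 and 13.6 CPM in WT and at 106, 96.0 and 107 CPM in OE-labelled libraries. Every OE-labelled library was far above every WT library, with KO between them at 25.1, 22.5 and 28.6 CPM. The log2 difference was 2.90 ± 0.15 (SE; adjusted p = 9.02e-09), 2.79 ± 0.15 with the length correction and 2.86 ± 0.23 with WT 2 against OE-labelled 1 and 3. CYP21A2, the 21-hydroxylase that makes the precursors of cortisol and aldosterone, was at 106, 92.6 and 108 CPM in WT and at 318, 351 and 297 CPM in OE-labelled libraries. The groups did not overlap, and the log2 difference was 1.66 ± 0.13 (SE; adjusted p = 2.06e-06). CYP21A2 has a near-identical pseudogene, CYP21A1P, chosen for mention after its values were seen, and HSD3B2 a close paralog, so the split of reads between copies is uncertain. On the counts CYP21A1P was itself higher, at 2.53, 3.87 and 5.08 CPM against 0.905, 0.489 and 0.920 CPM in WT (log2 difference 2.29 ± 0.50, adjusted p = 0.00519). Its WT levels were thus under 1 CPM, and it was not called with the slope as a covariate (2.21 ± 0.81, adjusted p = 0.114).

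The promoters of these 2 genes are shown because they had the largest called rises among the steroidogenic genes. The sequences are the 250 bases before the gene start from RefSeq (GRCh38.p14, plus strand, chr1:119414681-119414930 for HSD3B2 and chr6:32038165-32038414 for CYP21A2), with matches to AAGGNCA, searched on both strands, in capitals.
HSD3B2: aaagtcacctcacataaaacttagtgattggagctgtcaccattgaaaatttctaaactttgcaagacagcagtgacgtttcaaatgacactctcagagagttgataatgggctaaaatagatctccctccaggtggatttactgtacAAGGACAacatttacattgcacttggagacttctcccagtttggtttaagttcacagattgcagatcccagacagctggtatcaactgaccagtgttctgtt
CYP21A2: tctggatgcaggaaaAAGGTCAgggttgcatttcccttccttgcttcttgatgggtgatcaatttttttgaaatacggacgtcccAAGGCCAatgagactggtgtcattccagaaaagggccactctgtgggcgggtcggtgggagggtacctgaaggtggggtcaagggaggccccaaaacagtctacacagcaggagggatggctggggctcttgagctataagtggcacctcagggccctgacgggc
The letters AAGGNCA are a form of the half-site that NR5A1 is known to bind. HSD3B2 held 1 match, AAGGACA, 102 bases before the start. CYP21A2 held 2, AAGGTCA at 235 and AAGGCCA at 165 bases before the start. Such a match was in 14.8% of 35116 promoter entries of this length. Of the 21 steroidogenesis genes with an entry, 7 (33.3%) had a match in any of their entries. A gene can have several entries, so these shares are counted differently and cannot be compared. A match describes the letters only, and binding was not measured.

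CYP19A1, the aromatase that makes estrogens, was at 18.9, 21.6 and 23 CPM in WT and at 44.9, 40.4 and 45.3 CPM in OE-labelled libraries. The groups did not overlap (1.04 ± 0.13; adjusted p = 0.000195), and KO libraries were higher than both, at 248, 238 and 287 CPM. SCARB1, the receptor that takes up cholesterol esters from high-density lipoprotein, was at 1216, 990 and 1052 CPM in WT and at 1770.0, 2178 and 1859 CPM in OE-labelled libraries. It was higher in every OE-labelled library (0.83 ± 0.11; adjusted p = 0.000252) and its difference grew to 1.05 ± 0.12 with the length correction.

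**Figure D2:**
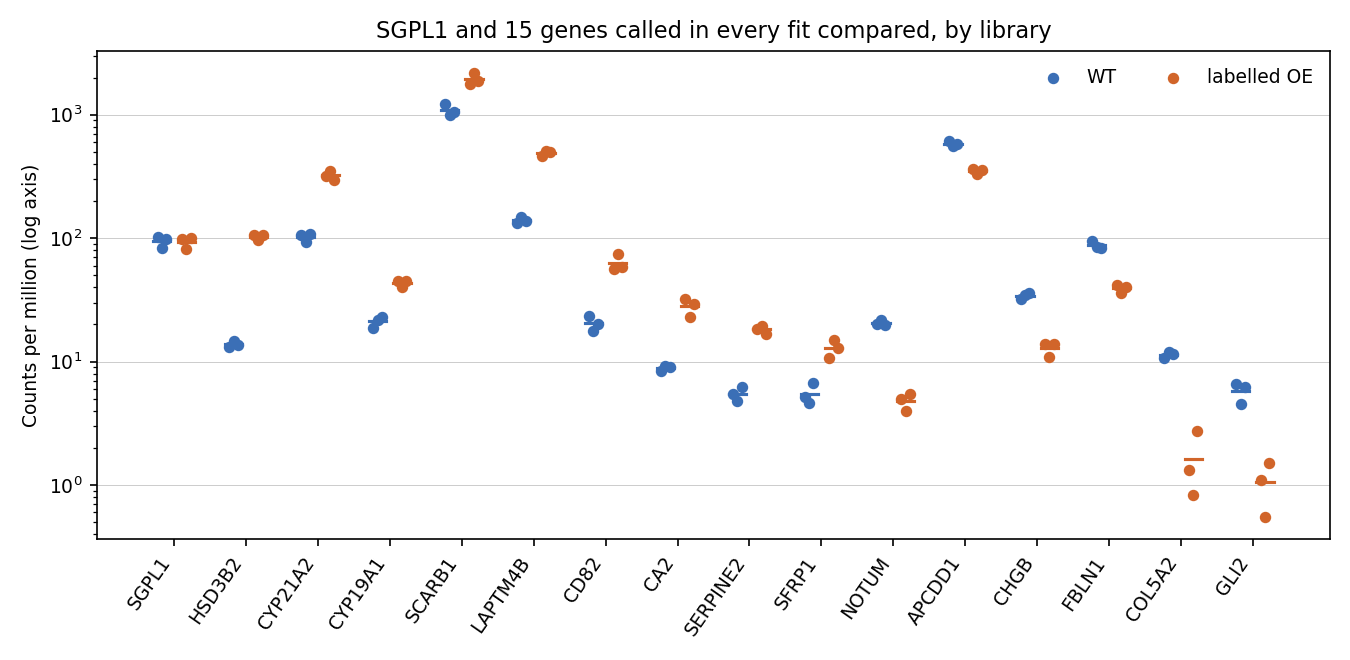
Levels (y axis, CPM on a log axis) of SGPL1 and of 15 genes called in all 5 fits (x axis), 1 point per library in WT (blue) and OE-labelled cells (orange), with a bar at each group's mean. The SGPL1 groups overlap, the OE-labelled points of HSD3B2 lie at 96.0 to 107 CPM against 13.1 to 14.7 CPM in WT, and those of NOTUM at 4.01 to 5.46 CPM against 19.9 to 21.9 CPM.

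The electron carriers of the steroidogenic cytochromes were called in the first 2 fits only. FDXR, which feeds electrons to the mitochondrial enzymes, rose by 0.70 ± 0.16 (adjusted p = 0.00751), POR, which serves the microsomal ones, by 0.53 ± 0.12 (adjusted p = 0.00826), and CYB5A, which aids the lyase step of CYP17A1, by 0.55 ± 0.15 (adjusted p = 0.0162). With the slope as a covariate their differences were 0.13 ± 0.13, 0.19 ± 0.11 and 0.25 ± 0.18, none called, and CYB5A was also not called without WT 1, WT 3 or OE-labelled 2. The other 4 genes called on the counts, named after their values were seen, were HSD17B10, FDX1, which carries electrons from FDXR, STARD3, a cholesterol transfer protein, and HSD11B2, which inactivates cortisol. They rose by 0.74 ± 0.16, 0.40 ± 0.13, 0.48 ± 0.14 and 1.10 ± 0.35 (adjusted p = 0.00558, 0.0457, 0.0265 and 0.0343), and none was called in the last 3 fits. Of these 4, FDX1, STARD3 and HSD11B2 were also not called without WT 1, WT 3 or OE-labelled 2, STARD3 without OE-labelled 3, and HSD11B2 without WT 2 or OE-labelled 3. CYP11B1, the enzyme that completes cortisol synthesis, was barely detected, at 0, 0 and 0.230 CPM in WT and 0.220, 0.553 and 0.188 CPM in OE-labelled libraries, and was not called. The other early genes, named here for their place in the pathway, differed less. CYP11A1 rose by 0.39 ± 0.13 (adjusted p = 0.0435), a call lost without WT 1, WT 3 or OE-labelled 2 and a difference of -0.02 ± 0.10 with the slope as a covariate. STAR differed by 0.28 ± 0.11 (adjusted p = 0.0712, and 0.0492 with the length correction, a call lost without any 1 of WT 1, WT 3 or the OE-labelled libraries), CYP17A1 by -0.19 ± 0.13 (adjusted p = 0.298) and NR5A1 by -0.04 ± 0.11 (adjusted p = 0.847; 95% interval -0.28 to 0.21).

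Most messenger RNAs encoded by mitochondrial DNA, which specify core subunits of the respiratory complexes, were higher, 9 of the 13 in all 5 fits. Of the 13, 10 were called higher and 0 lower, with a median of 0.85, and 9 and 0 with the length correction (median 0.66); 9 had groups that did not overlap, beside 17.8% of all genes higher and 18.6% lower in that way. MT-ND2, a subunit of complex I, was at 238, 206 and 218 CPM in WT, at 640, 597 and 555 CPM in OE-labelled and at 242, 265 and 281 CPM in KO libraries. It rose by 1.44 ± 0.11 (SE; adjusted p = 1.64e-06). MT-ND3 was at 154, 169 and 152 CPM in WT and at 362, 494 and 426 CPM in OE-labelled libraries, with no overlap (1.43 ± 0.12; adjusted p = 4.67e-06). The cytochrome oxidase subunits MT-CO2 and MT-CO3 rose by 1.06 ± 0.12 and 0.97 ± 0.11 (adjusted p = 6.17e-05 for both), and MT-CO1 by 0.60 ± 0.11 (adjusted p = 0.0015; not called with the length correction without OE-labelled 1).

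In all 5 fits 9 of the 13 were called: MT-ND1, MT-ND2, MT-ND3, MT-ND4, MT-CO1, MT-CO2, MT-CO3, MT-CYB and MT-ATP6. MT-ND6, the only one read from the light strand, differed by 0.18 ± 0.14 (adjusted p = 0.382) and was called in none of the 5 fits. MT-ND5 differed by 0.22 ± 0.24 (adjusted p = 0.562), though it was called in the last 3 fits (1.15 ± 0.17 with the slope as a covariate). MT-ATP8 and MT-ND4L, the shortest members, overlapped between groups, and MT-ND4L was called on the counts only among the first 2 fits (0.75 ± 0.24; adjusted p = 0.0397), a call lost without WT 1, WT 2, OE-labelled 1 or OE-labelled 3. With the slope as a covariate 12 of 13 were called higher (median 1.15), and with WT 2 against OE-labelled 1 and 3 also 12 (median 1.09). All 13 mitochondrial genes are shorter than 2000 nt. Relative to the WT mean, the list stood at 0.03, -0.14 and 0.09 in WT and at 1.04, 0.75 and 0.81 in OE-labelled libraries. The share of all counts on mitochondrial genes was 0.826%, 0.790% and 0.867% in WT, 1.45%, 1.38% and 1.34% in OE-labelled, and 0.800%, 0.946% and 0.858% in KO libraries. Reads that also map to nuclear copies of mitochondrial sequence may be lost, so levels of single genes are uncertain.

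**Figure D3:**
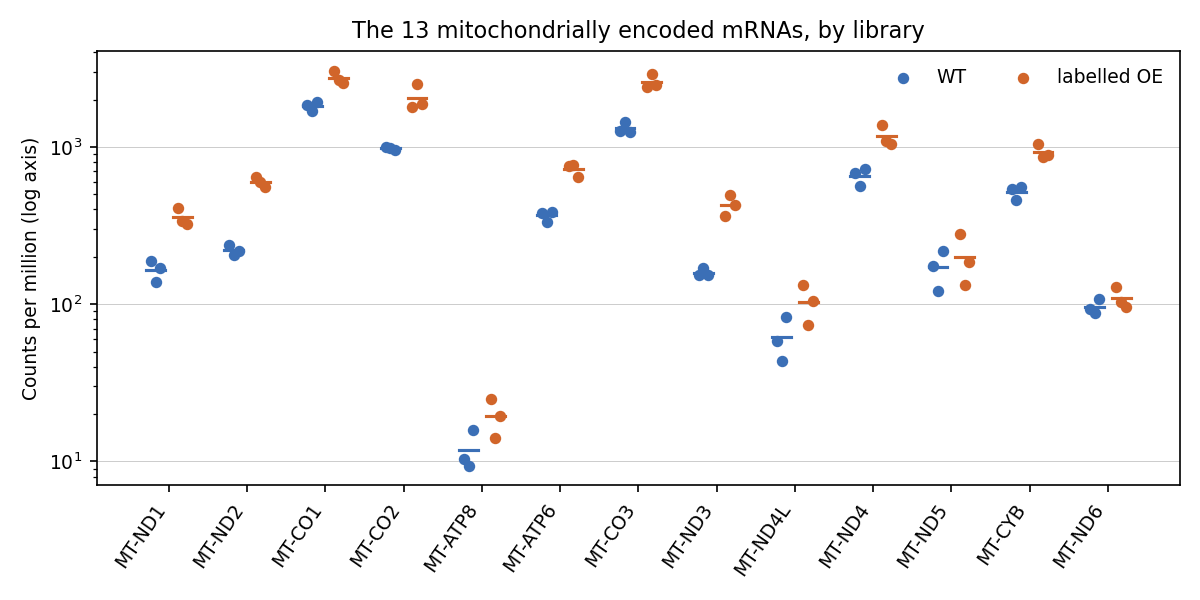
Levels (y axis, CPM on a log axis) of the 13 mitochondrially encoded mRNAs (x axis), 1 point per library in WT (blue) and OE-labelled cells (orange), with a bar at each group's mean. MT-ND2 lies at 555 to 640 CPM in OE-labelled libraries against 206 to 238 CPM in WT, whereas the groups of MT-ND5, MT-ND6, MT-ATP8 and MT-ND4L overlap.

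The nuclear genes of respiration and protein synthesis were higher as groups on the counts, and these groups also moved with the length slope. Of 77 cytosolic ribosomal protein genes 63 were called higher and 0 lower (median 0.61; 69 and 0 with the length correction). Of 34 genes of respiratory complex I 19 were higher and 0 lower (median 0.50; 19 and 0). Of 41 genes of complexes II to V 25 were higher and 0 lower (median 0.48; 20 and 0). The mitochondrial ribosome had 21 of 52 higher (median 0.45; 22 corrected) and the proteasome 22 of 31 (median 0.51; 23 corrected), with 0 lower in either. RPL11, a protein of the large ribosomal subunit, was at 469, 570 and 484 CPM in WT and at 744, 1007 and 815 CPM in OE-labelled libraries, without overlap (0.75 ± 0.12; adjusted p = 0.000805). ATP5MC1, which encodes the c subunit of ATP synthase, was at 87.1, 106 and 78.2 CPM against 146, 203 and 144 CPM (0.86 ± 0.15; adjusted p = 0.00153).

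Within WT alone the ribosomal list stood at -0.05, 0.25 and -0.19 relative to the WT mean, and in the OE-labelled libraries at 0.42, 0.93 and 0.46. The highest value of each group was that of the library with its lowest slope. Complex I genes ran the same way, at -0.04, 0.23 and -0.18 in WT and 0.31, 0.78 and 0.35 in OE-labelled libraries. With the slope as a covariate 8 ribosomal genes were called (median 0.08), 0 of complex I (0.04), 2 of complexes II to V (0.07), 1 of the mitochondrial ribosome (0.05) and 0 of the proteasome (0.13). With WT 2 against OE-labelled 1 and 3 the counts were 0, 0, 0, 1 and 0, and with the correction added 11 ribosomal genes were called (median 0.26). The same lists shrank when single libraries were left out: ribosomal genes to 39, 37 and 44 called without WT 1, WT 3 and OE-labelled 2, complex I to 5, 4 and 8, complexes II to V to 10, 10 and 13, the mitochondrial ribosome to 8, 6 and 8, and the proteasome to 8, 7 and 11. The lists' medians stayed positive in all of these fits, at lower values.

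**Figure D4:**
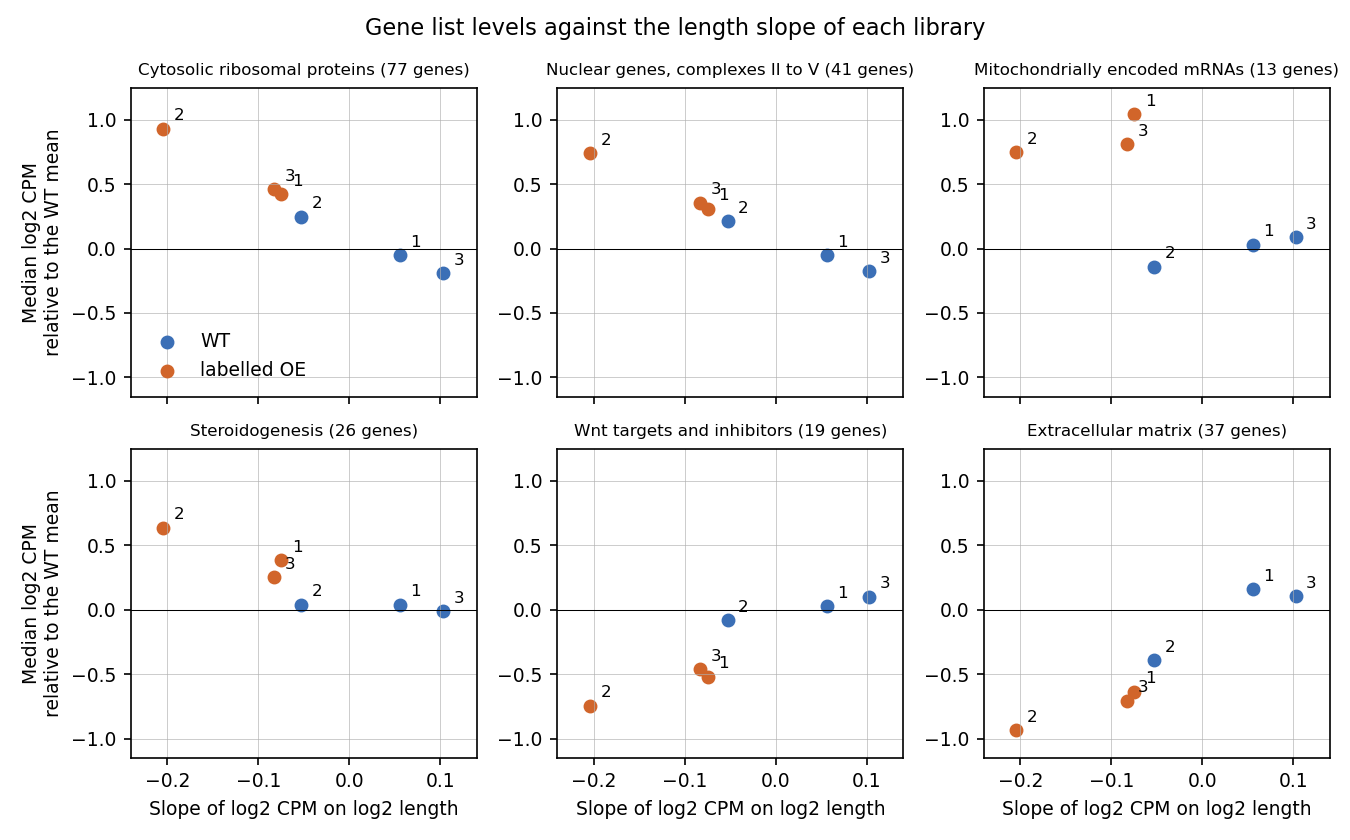
Median log2 CPM of the genes of a list relative to the WT mean (y axis) against the library's slope of log2 CPM on log2 length (x axis), 1 numbered point per library of WT (blue) and OE-labelled cells (orange), in 6 panels named by their list. The points of ribosomal proteins and of complexes II to V rise as the slope falls, within WT too, while the mitochondrially encoded mRNAs stand at 0.75 to 1.04 in OE-labelled libraries and between -0.14 and 0.09 in WT.

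Genes for very large cytoskeletal and scaffold proteins ran the opposite way. Of 37 tested, 35 were called lower and 0 higher on the counts (median -1.12), 26 with the length correction (median -0.59), 4 with the slope as a covariate (median -0.31) and 2 with WT 2 against OE-labelled 1 and 3 (median -0.35). The list stood at 0.12, -0.54 and 0.42 in WT and at -0.75, -1.30 and -1.08 in OE-labelled libraries, so WT 2 again lay nearest to them. Without WT 1 and without WT 3 the corrected count fell to 16 and 14, and without WT 3 the uncorrected one to 23. LRP1, an endocytic receptor of lipoproteins, and SPTBN1, a spectrin chain under the plasma membrane, were lower in all 5 fits. LRP1 was at 40.4, 25.9 and 54.4 CPM in WT and at 12.1, 6.78 and 7.99 CPM in OE-labelled libraries (-2.16 ± 0.27, and -1.67 ± 0.21 with the correction; adjusted p = 0.000135 and 2.81e-05). GOLGB1, the giant tether of Golgi membranes, fell likewise in all 5 fits, by 2.45 ± 0.30 on the counts and by 1.21 ± 0.22 in the fit where its change was smallest.

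Targets and inhibitors of canonical Wnt signalling were mostly lower. This pathway stabilises beta-catenin, is active in many adrenocortical carcinomas, and induces several of its own inhibitors. Of 19 genes tested 11 were lower (57.9%, beside 11% of all genes) and 1 higher (5.26%, beside 9.65%). The median was -0.56, and with the correction 10 were lower and 1 higher (median -0.51). With the slope as a covariate 6 were lower and 1 higher, and with WT 2 against OE-labelled 1 and 3 the numbers were 5 and 1. NOTUM, a secreted enzyme that inactivates Wnt proteins and is itself induced by the pathway, was at 20, 21.9 and 19.9 CPM in WT and at 4.95, 4.01 and 5.46 CPM in OE-labelled libraries. The groups were far apart, with KO between at 12.5, 12 and 10.3 CPM, and NOTUM fell by 2.08 ± 0.20 (adjusted p = 1.52e-05). APCDD1, a membrane inhibitor of Wnt, was at 613, 560 and 574 CPM against 363, 333 and 354 CPM and fell by 0.73 ± 0.10 (adjusted p = 0.000299). Both were lower in all 5 fits.

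NKD1, a feedback inhibitor inside the cell, was at 74.1, 53.7 and 104 CPM in WT and at 30.6, 27 and 32 CPM in OE-labelled libraries. It did not overlap (-1.37 ± 0.19; adjusted p = 0.000357) and was called in 4 of the 5 fits, the adjusted p being 0.069 with WT 2 against OE-labelled 1 and 3 and the correction. A further 3 targets, named after their values were seen, were lower on the counts: LGR5, a receptor of R-spondins, by 1.16 ± 0.22 (adjusted p = 0.0024), AXIN2, by 0.55 ± 0.13 (adjusted p = 0.0077), and LEF1, a transcription factor of the pathway, by 0.70 ± 0.14 (adjusted p = 0.00353). None of these was called in all 5 fits. SFRP1, a secreted Wnt antagonist, was the list's 1 gene called higher, at 10.7, 14.9 and 12.9 CPM against 5.20, 4.65 and 6.67 CPM in WT, with no overlap (1.21 ± 0.22; adjusted p = 0.00181), and in all 5 fits. GLI2, a transcription factor of Hedgehog signalling, fell by 2.38 ± 0.35 (adjusted p = 0.000417) from 6.56, 4.52 and 6.21 CPM to 1.10, 0.553 and 1.5 CPM. Of the 11 Hedgehog genes tested 4 were lower (36.4%) and 1 higher (9.09%), on the counts (median -0.23) and with the correction (median -0.18). Over all genes, 11% were lower and 9.65% higher on the counts. GLI2 alone was called in all 5 fits, and the median was 0.02 with the slope as a covariate. Without WT 1 or WT 3, 1 gene was lower and 0 higher on the counts.

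Genes of the extracellular matrix and its proteases were lower, 62.2% of them on the counts beside 11% of all genes. A further 5.41% were higher, beside 9.65%. Of 37 tested 23 were lower and 2 higher (median -0.81), 22 and 4 with the length correction (median -0.56), 11 and 4 with the slope as a covariate (median -0.52), and 5 and 3 with WT 2 against OE-labelled 1 and 3 (median -0.42). Several of these genes are long. COL5A2, a chain of fibrillar collagen, was at 10.7, 11.9 and 11.5 CPM in WT and at 1.32, 0.830 and 2.73 CPM in OE-labelled libraries, and KO libraries were as low, at 0 to 1.30 CPM. It fell by 2.74 ± 0.46 (adjusted p = 0.00113). VCAN, a large proteoglycan, fell by 1.97 ± 0.23 (adjusted p = 0.000104), and FBLN1, a fibulin of basement membranes and elastic fibres, by 1.16 ± 0.14 (adjusted p = 0.000123). FN1, fibronectin, was at 11.2, 5.14 and 12.2 CPM against 1.10, 1.38 and 0.941 CPM (-3.07 ± 0.44; adjusted p = 0.000381), a call lost with WT 2 against OE-labelled 1 and 3 (adjusted p = 0.085). Of these, COL5A2, VCAN and FBLN1 were lower in all 5 fits.

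Other matrix genes rose. COL15A1, a collagen of basement membranes, was at 392, 293 and 377 CPM in WT and at 623, 458 and 545 CPM in OE-labelled libraries, with no overlap (0.61 ± 0.13; adjusted p = 0.00475). SERPINE2, an inhibitor of serine proteases, was at 5.43, 4.77 and 6.21 CPM against 18.5, 19.4 and 16.8 CPM (1.73 ± 0.24; adjusted p = 0.000309), while KO libraries lay at 1.64, 3.57 and 3.21 CPM. The integrin chain ITGB5 rose by 0.94 ± 0.12 (adjusted p = 0.000217), against the direction of its list. Of 24 adhesion and integrin genes tested 1 was higher, ITGB5 (4.17%, beside 9.65% of all genes), and 6 were lower on the counts (25%, beside 11%). Their median was -0.37. With the length correction 3 were higher and 7 lower (median -0.23). COL15A1, SERPINE2 and ITGB5 were higher in all 5 fits. COL3A1, a fibroblast marker, fell by 1.54 ± 0.29 (adjusted p = 0.00197) from 14.2, 8.19 and 12.2 CPM and was not called with the slope as a covariate. Summed over the 10 fibroblast markers, the level was 60.4, 49.5 and 61.3 CPM of the unscaled library total in WT and 40.3, 32.3 and 42.5 CPM in OE-labelled libraries. Of the markers, LUM and POSTN had 0 counts in all 6 libraries. What part fibroblasts had in the matrix list was not tested.

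Mitotic genes were partly lower, 35.8% of them on the counts beside 11% of all genes. A further 3.77% were higher, beside 9.65%. Of 53 tested 19 were lower and 2 higher (median -0.19), 17 and 2 with the length correction (median -0.22), 6 and 0 with the slope as a covariate (median -0.17) and 2 and 0 with WT 2 against OE-labelled 1 and 3 (median -0.20). The number lower on the counts was 10 without WT 3, and with the correction 11. TOP2A, which untangles DNA, was at 803, 756 and 912 CPM in WT and at 548, 549 and 558 CPM in OE-labelled libraries. Every OE-labelled value was below every WT value (-0.58 ± 0.11, adjusted p = 0.00256), but TOP2A was not called in all 5 fits. MKI67 and CENPF, a coat protein of mitotic chromosomes and a kinetochore protein, both long, were lower in all 5 fits. MKI67 was at 233, 94.5 and 303 CPM against 43.1, 23 and 35.5 CPM, and its fall ranged from 2.63 ± 0.31 on the counts to 1.15 ± 0.16 with WT 2 against OE-labelled 1 and 3 and the correction. The 2 called higher, PTTG1 (securin) and BIRC5 (survivin), which were named after their values were seen, rose by 0.54 ± 0.13 and 0.45 ± 0.13 (adjusted p = 0.00871 and 0.0215); neither was called with the slope as a covariate, PTTG1 not without WT 1, and BIRC5 not without WT 1, WT 3 or OE-labelled 2. Of 45 genes of DNA replication 7 were lower (15.6%, beside 11% of all genes) and 1 higher (2.22%, beside 9.65%). The numbers were 14 and 0 when scaled by library totals alone, where 2190 of all genes were lower, and 3 and 0 without WT 3. UHRF1, which carries DNA methylation through replication, fell in all 5 fits (-0.95 ± 0.15; adjusted p = 0.000587), as did CDKN1A, the p53-induced inhibitor of cell division (-0.53 ± 0.12; adjusted p = 0.00669).

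**Figure D5:**
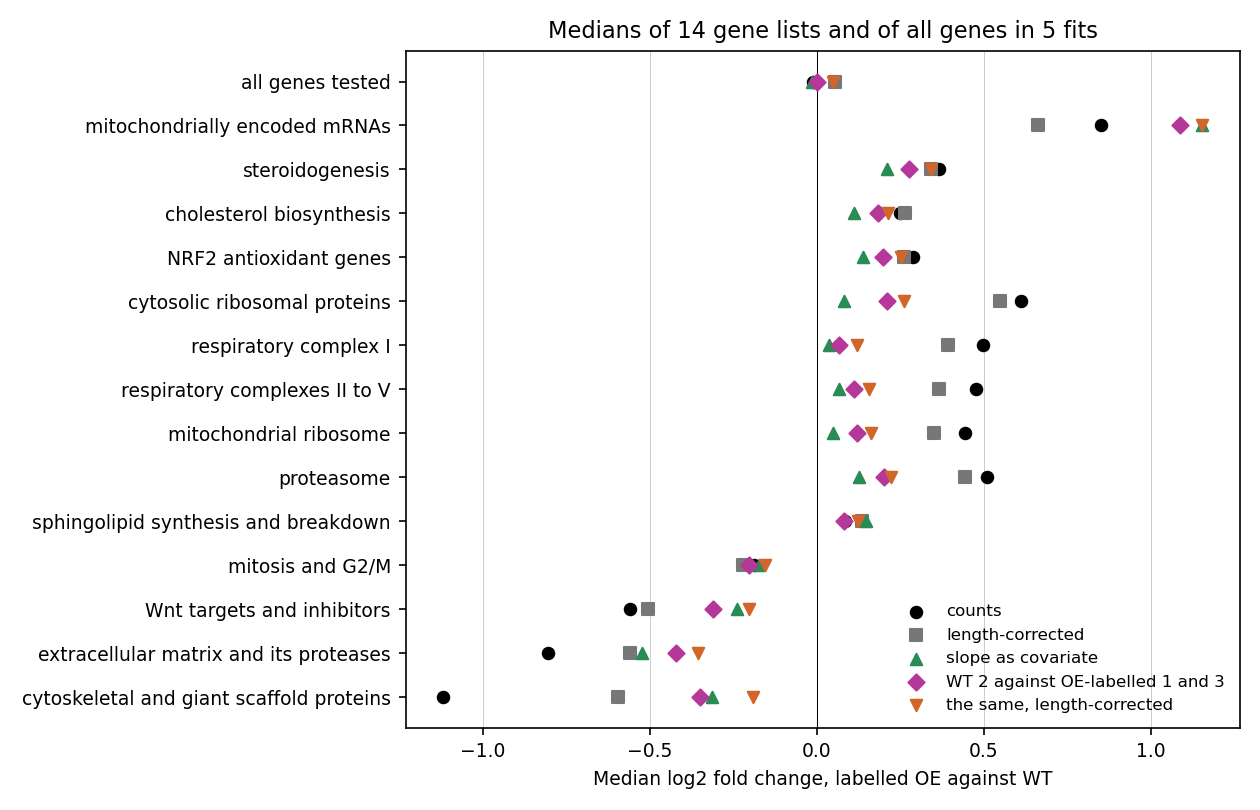
Median log2 difference between OE-labelled and WT libraries (x axis) for all genes and for each of 14 gene lists (y axis), with 1 symbol for each of the 5 fits. Steroidogenesis stays between 0.21 and 0.37, whereas the ribosomal list moves from 0.61 on the counts to 0.08 with the slope as a covariate.

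The sphingolipid genes around SGPL1 were called at about the rate of all genes on the counts, 6 of 37 beside 20.7%. Of 37 genes of sphingolipid synthesis and breakdown 5 were higher and 1 lower (median 0.09), 8 and 1 with the length correction (median 0.14), and 0 in either direction both with the slope as a covariate and with WT 2 against OE-labelled 1 and 3. The median turned to -0.04 when scaled by library totals alone, and the number higher was 1 without WT 1, 0 without WT 3 and 1 without OE-labelled 2. SPHK1, the kinase that makes S1P, was close to the filter, at 1.58, 0.489 and 0.805 CPM in WT and at 1.76, 3.04 and 4.61 CPM in OE-labelled libraries (1.69 ± 0.51; adjusted p = 0.0266), and was not called without WT 2, WT 3, OE-labelled 2 or OE-labelled 3. CERS5, a ceramide synthase, rose by 0.53 ± 0.14 (adjusted p = 0.0145), a call lost without WT 1 or WT 3. ALDH3A2, which oxidises the fatty aldehyde that SGPL1 releases, differed by 0.21 ± 0.10 (adjusted p = 0.152) and rose by 0.62 ± 0.12 with the length correction (adjusted p = 0.000973); its annotated length is 15331 nt.

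Of 8 S1P receptors and transporters 0 were higher and 1 lower on the counts (12.5%, beside 11% of all genes). The S1P receptor S1PR3, annotated at 13702 nt, was at 398, 338 and 442 CPM in WT and at 554, 375 and 557 CPM in OE-labelled libraries, which overlapped (0.34 ± 0.15; adjusted p = 0.111). It was higher in the other 4 fits, by 0.72 ± 0.11 with the correction and by 0.84 ± 0.11 with the slope as a covariate. ABCC1, a transporter that exports S1P, fell by 0.87 ± 0.18 (adjusted p = 0.00392), and by 0.28 ± 0.18 without a call with the slope as a covariate (adjusted p = 0.41). Of 10 genes that make phosphatidylethanolamine, to which the other product of SGPL1 contributes, 2 were higher (20%, beside 9.65% of all genes) and 0 lower. The median was 0.24, and with the correction 5 were higher (50%, beside 13.1%) and 0 lower (median 0.44). None of the 10 was called in all 5 fits. The count of 2 became 1 without WT 1, WT 3, OE-labelled 1 or OE-labelled 3, and that of 5 became 3 without WT 1, OE-labelled 1 or OE-labelled 3.

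Among lipid genes, those of cholesterol synthesis were called mainly higher on the counts and those of fatty acid synthesis in both directions. Of 25 genes of cholesterol synthesis 9 were higher and 0 lower (median 0.25; 8 and 0 with the correction), but 2 and 1 when scaled by library totals alone, 3 and 0 with the slope as a covariate, and 2 higher without WT 1 or WT 3, 5 without OE-labelled 2 and 4 without OE-labelled 3. SREBF1, the transcription factor of fatty acid synthesis, fell in all 5 fits, from 80.1, 59.5 and 70.9 CPM to 26.1, 26.3 and 27.1 CPM (-1.41 ± 0.19; adjusted p = 0.000252), and was also low in KO, at 24.3, 22.9 and 13.6 CPM. FASN, fatty acid synthase, fell by 1.04 ± 0.20 (adjusted p = 0.00264) and SCD, which desaturates its products, by 0.62 ± 0.13 (adjusted p = 0.004), both without a call in the last 3 fits. Of 17 genes of fatty acid synthesis 6 were lower (35.3%, beside 11% of all genes) and 2 higher (11.8%, beside 9.65%). The median was -0.10, and with the correction 4 were lower and 2 higher (median -0.05). Only SREBF1 of these was called in all 5 fits.

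ATF4, the transcription factor of the integrated stress response, was at 122, 199 and 184 CPM in WT and at 78.4, 87.7 and 70.0 CPM in OE-labelled libraries. It was lower in every OE-labelled library and in all 5 fits (-1.10 ± 0.16; adjusted p = 0.000417). Its targets had no common direction. Of 29 genes of ATF4 and amino acid metabolism 4 were higher (13.8%, beside 9.65% of all genes) and 6 lower (20.7%, beside 11%). The median was -0.08, and the numbers were 1 and 5 without WT 1 and 1 and 2 without WT 3. CHAC1, a glutathione-degrading target, was at 2.04, 22.4 and 25.9 CPM in WT and at 3.30, 5.12 and 3.01 CPM in OE-labelled libraries. Its fall of 2.16 ± 0.55 (adjusted p = 0.0126) rested on WT 2 and WT 3, since WT 1 was below all OE-labelled libraries, and it was not called without WT 3 (log2 difference -1.69; adjusted p = 0.0705). SLC1A5, a glutamine transporter, rose by 0.97 ± 0.16 (adjusted p = 0.00091), and by 0.70 ± 0.21 with the slope as a covariate (adjusted p = 0.0461). It was not called in all 5 fits.

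Of 26 antioxidant genes under NRF2 10 were higher and 1 lower (median 0.29), beside 9.65% and 11% of all genes. With the length correction the numbers were 11 and 0. Leaving out 1 library at a time gave 7 to 12 higher on the counts. Relative to the WT mean, the list stood at -0.04, 0.07 and -0.11 in WT and at 0.23, 0.53 and 0.18 in OE-labelled libraries. Of the 26, 1 was called in all 5 fits, NQO1. NQO1, the quinone reductase, was at 140, 169 and 137 CPM in WT and at 245, 332 and 261 CPM in OE-labelled libraries, and was higher in all 5 fits (0.91 ± 0.13; adjusted p = 0.000411). Of 41 lysosomal genes 10 were higher (24.4%, beside 9.65% of all genes) and 3 lower (7.32%, beside 11%). These became 7 and 7 when scaled by library totals alone, 6 and 1 without WT 1 and 6 and 2 without WT 3. The membrane proteins of lysosomes and endosomes, LAPTM4B and CD63, were higher in all 5 fits, and 1 other gene of the list, PSAP, was lower in all 5. LAPTM4B was at 132, 147 and 138 CPM in WT and at 466, 510 and 502 CPM in OE-labelled libraries, far apart (1.82 ± 0.10; adjusted p = 2.71e-08). CD63 was at 1462, 1912 and 1337 CPM against 2912, 4441 and 2899.8 CPM (1.12 ± 0.16; adjusted p = 0.000381). The chaperones HSPA8 and SDF2L1 rose by 0.95 ± 0.12 and 1.21 ± 0.18 (adjusted p = 0.000135 and 0.000417), also in all 5 fits. SDF2L1 is from the list of the unfolded protein response (median 0.07). Of its 23 genes 5 were higher (21.7%, beside 9.65% of all genes) and 2 lower (8.70%, beside 11%). DDIT3, of the same list, was lower in all 5 fits, on the counts close to the threshold (-1.02 ± 0.34, adjusted p = 0.0419). Its log2 difference was -1.71 where WT 2 was the only WT library.

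Regulators of the adrenal cortex showed no shared direction. Of 25 tested 2 were higher (8%, beside 9.65% of all genes) and 4 lower (16%, beside 11%). There were 0 in either direction without WT 1 and 1 in each without WT 3. The median of -0.11 turned to 0.16 with the slope as a covariate. IGF2, a growth factor often raised in adrenocortical carcinoma, was at 62.5, 19.7 and 83.5 CPM in WT and at 33.0, 11.3 and 16.5 CPM in OE-labelled libraries. The groups overlapped through WT 2, and the fall of 1.44 ± 0.40 (adjusted p = 0.0189) was 0.26 ± 0.31 in the opposite direction with the slope as a covariate and was not called without WT 1, WT 3, OE-labelled 2 or OE-labelled 3. CHGB, a granule protein of chromaffin and other endocrine cells, fell in all 5 fits (-1.39 ± 0.16; adjusted p = 0.000104), from 31.9, 34.4 and 35.7 CPM to 14, 10.92 and 13.8 CPM, with KO as low, at 15.3, 14.4 and 12.6 CPM. The chromaffin markers TH, DBH, PNMT and SLC18A1 had 0 counts in all 6 libraries.

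Among the largest rises called in all 5 fits outside these lists were CA2, a carbonic anhydrase, from 8.37, 9.29 and 8.97 CPM to 32.4, 23 and 29.5 CPM (1.68 ± 0.19; adjusted p = 6.17e-05), and CD82, a tetraspanin, by 1.61 ± 0.16 (adjusted p = 2.42e-05). TNFRSF12A, the receptor of the cytokine TWEAK, rose by 1.80 ± 0.18 (adjusted p = 2.42e-05) and MAOA, a monoamine oxidase, by 1.48 ± 0.24 (adjusted p = 0.000773). IL18, a cytokine, had 0 counts in every WT library and 10, 19 and 10 counts in the OE-labelled ones, at least 4.01-fold higher against a floor of 3 counts per library. SERF1B, which has a near-identical copy, was at 26.7 CPM in WT 2 alone among 2.15 and 2.07 CPM in WT 1 and 3 and 1.43, 0.691 and 1.69 CPM in OE-labelled libraries, and was not called without WT 2 (-0.68; adjusted p = 0.432). The long non-coding RNA MEG3 fell by 1.02 ± 0.12 (adjusted p = 0.000114), from 107, 92.9 and 113 CPM to 49.1, 54.1 and 50.5 CPM and in all 5 fits, while MEG8 from the same imprinted locus rose by 1.31 ± 0.26 (adjusted p = 0.00273), a call not made in the last 3 fits. Over windows of 51 neighbouring genes 0 blocks had a median beyond 0.4 in size, and over windows of 31 genes 8 did on the counts and 2 with the correction.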

How the data were processed

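Poly-A RNA of H295R cells was sequenced in 3 WT, 3 KO and 3 OE-labelled libraries. The deposited files hold counts (whole numbers of reads for each gene) that the authors made with featureCounts 1.5.2 on Ensembl release 101 per the file headers; the submitters' processing notes name FastQC, HISAT2 1.03, featureCounts 0.1.0, DESeq2 and GRCh38. With default options featureCounts does not use strand and skips multi-mapping reads, so genes with close copies or antisense partners are uncertain.

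Counts were tested with the edgeR 4.0.16 quasi-likelihood F test in R 4.3.3: all 9 libraries in one fit (6 residual degrees of freedom), a filterByExpr minimum of 10 counts, TMM normalization, Benjamini-Hochberg adjustment over 14150 genes, and a call under 0.05. Every printed adjusted p is from edgeR's test, in this fit unless another is named; those fits adjust over their own tested genes. The median standard error of a log2 difference was 0.187. Length correction subtracts each library's natural spline (4 degrees of freedom) of log2 level on the annotated length. DESeq2 1.42.0 and limma-voom (3.58.1) were alternatives. Of the fits, only those on the counts and with the length correction, on all libraries, were run on simulated data. The outcome is not given here.

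Named genes were SGPL1, the 12 largest rises and falls called in both of the first 2 fits without overlap, genes losing their call, the members of each list with the smallest corrected p (4, or 8 for larger lists), genes silent in 1 group, and 6 non-coding genes. Other genes named, including STAR, CYP11A1, CYP17A1, NR5A1, PTTG1, BIRC5, LGR5, AXIN2, LEF1, FDX1, STARD3, HSD17B10, HSD11B2, CYP11B1 and CYP21A1P, were chosen after their values were seen. Comparison, members and lists were chosen with earlier results of these data known.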

Additional observations from a re-analysis of the deposited data

How the results depend on the processing

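Leaving out 1 library at a time, the number of genes called ranged from 485 to 1798 (higher), 759 to 1875 (lower) and 385 to 949 (at least 2-fold), and with the length correction from 930 to 2234, 639 to 1349 and 313 to 662. Genes changed at least 2-fold fell from 664 to 167 with the slope as a covariate. With WT 2 against OE-labelled 1 and 3 the calls were 95 higher, 143 lower and 110 at least 2-fold, and 245, 162 and 139 with the correction. The slope as a covariate gave 370 higher and 388 lower, and scaling by library totals alone 765 higher. The cause of these moves was not tested; fewer samples enter the fits that leave libraries out. The replicate numbers were not taken to pair the samples. Same-number deviations correlated at 0.013, 0.246 and 0.136, and WT 3 correlated more with OE-labelled 1, at 0.209, than with its own number. A replicate block called 1820 higher, 1937 lower and 688 at least 2-fold, and 2251, 1375 and 510 with the correction.

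SGPL1 was on the other side of 0, never called, with the length correction (0.18), the slope as a covariate (0.30), WT 2 against OE-labelled 1 and 3 (0.26), upper-quartile scaling (0.0027) and no filter on low counts (0.0075), and between -0.080 and 0.095 when 1 library was left out. Chromosome blocks numbered 8 on the counts and 2 with the correction over windows of 31 genes. CYP11A1 turned to -0.017 and IGF2 to 0.26 with the slope as a covariate, and IGF2 to 0.32 and, corrected, 0.35 with WT 2 against OE-labelled 1 and 3. With 1 library left out, NR5A1 ranged from -0.12 (without OE-labelled 2) to 0.031 (without WT 1). MT-ND5 ranged from -0.10 (without OE-labelled 1) to 0.46 (without OE-labelled 2) with 1 library left out and turned, corrected, to -0.031 with the spline from protein-coding genes, -0.14 without WT 2 and -0.27 without OE-labelled 1. MT-ND6 turned to -0.080 with the correction and, corrected, to 0.37 with WT 2 against OE-labelled 1 and 3 and 0.21 without the filter, with a range from -0.23 (without OE-labelled 1) to 0.067 (without WT 3) when 1 library was left out. The difference in slope kept its sign in all alternatives. Over the named genes other than SGPL1 and all alternatives, 1854 values on the counts kept direction and call, 190 lost the call, 37 gained it and 8 reversed; with the correction the numbers were 1958, 107, 14 and 8. Many of these genes were chosen for a large change or small p in the first 2 fits, and that choice favours kept calls. With the slope as a covariate on the counts, 74 kept direction and call, 42 lost the call, 5 gained it and 2 reversed. Depth limits the genes near 1 CPM, such as SPHK1.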
